A study of Mus musculus with 17 samples.

Results

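Emp1, Emp2, Emp3 and Pmp22, the 4 genes of a small family of membrane proteins, were followed through 9 sorted populations of mouse blood cells and their precursors. They were found by gene symbol among 22180 genes measured on Affymetrix Mouse Gene 2.0 ST arrays, and all 4 were present, on 5 probe sets, of which 2 belong to Emp1. Emp1 was chosen by its measured levels, which swing widely between LMPP, CMP, CLP, EILP and thymic cells, so its levels are given as a description with no test. Emp2, Emp3 and Pmp22 were taken for their kinship with Emp1, and their differences were tested.

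From the bone marrow came stem cells of the blood (HSC), the multipotent progenitor primed toward lymphocytes (LMPP), common myeloid progenitors sorted with or without surface Flt3 (flt3+ CMP and flt3- CMP), the common progenitor of lymphocytes (CLP), the early progenitor of innate lymphocytes (EILP) and natural killer cells (NK). The thymus supplied its earliest progenitors (ETP) and the later DN3 cells. Every population came from chimeras, B6 CD45.1 hosts that were lethally irradiated and rebuilt with marrow of TCF-1 GFP reporter donors, so no group lacks the reporter or the irradiation. Cells of several mice were pooled, and each population had 2 arrays except EILP, which had 1. Nothing in the labels says that paired arrays came from separate mice, so every p-value here reflects how far these particular arrays scatter, which may be technical.

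Median log2 values per array ran from 4.45 to 4.62, and having so few arrays is what limits precision. Averaged per array, the marker lists of HSC, LMPP, CLP, NK and DN3 were highest in their own population without overlap. The lists are short, with 3 of 4 HSC, 2 LMPP, 2 of 3 CLP, 4 NK and 3 of 5 DN3 markers measured. Single genes could peak elsewhere. Dntt of the LMPP list was at 10.69 in LMPP, 10.95 in ETP and 11.24 in DN3, and Il7r of the CLP list at 9.71 in CLP and 9.85 in DN3. ETP markers were at 7.37 and 7.46 in ETP, overlapping DN3 at up to 7.43. CMP markers overlapped with EILP, at 8.65 to 9.17 in the CMP arrays and up to 8.70 in the others. EILP markers were at 7.16 in EILP, with NK as high as 7.46. A neutrophil list (6 genes such as S100a8 and Camp) averaged 9.95 to 11.77 in the 13 marrow arrays, 4.79 to 5.11 in ETP and 4.03 to 4.57 in DN3. Y-linked transcripts (mean of 3 genes) were at 7.03 to 7.66 in the CLP, EILP and DN3 arrays and at 3.03 to 3.38 in the other 12. In sorted pools, fewer cells that carry a transcript and less transcript per cell cannot be told apart.

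The epithelial membrane proteins and the related peripheral myelin protein cross the membrane 4 times and carry a glycosylated outer loop. They share their fold with the claudins, the sealing proteins of tight junctions. PMP22 is best known from the myelin of Schwann cells, where too much or too little of it causes inherited neuropathies. EMP1 is known from epithelia and from cells that leave the cycle to differentiate, EMP2 from epithelia, where it affects the surface display of integrins, and EMP3 from leukocytes and other tissues. No member is a classical marker of a blood cell lineage.

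The bases just upstream of the annotated starts are shown for Emp1, whose level swings most, for Emp3, which differed in DN3, and for Emp2, which showed no called difference. They are from RefSeq (build GRCm38.p6), 150 bases each, read 5′ to 3′ along the gene and ending at the base before the start. Capitals mark matches to the short motifs searched.
Emp1 first start, chr6:135362781-135362930, plus strand: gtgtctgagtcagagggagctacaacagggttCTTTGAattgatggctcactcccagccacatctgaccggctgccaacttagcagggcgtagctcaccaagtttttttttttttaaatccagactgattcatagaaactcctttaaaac
Emp1 second start, chr6:135367343-135367492, plus strand: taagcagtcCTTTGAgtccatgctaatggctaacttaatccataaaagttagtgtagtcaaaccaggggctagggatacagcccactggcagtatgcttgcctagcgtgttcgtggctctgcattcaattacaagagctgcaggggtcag
Emp3 first start, chr7:45921427-45921576, minus strand: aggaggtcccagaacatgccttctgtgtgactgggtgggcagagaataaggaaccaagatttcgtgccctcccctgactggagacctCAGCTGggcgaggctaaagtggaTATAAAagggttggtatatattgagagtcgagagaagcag
Emp2 start, chr16:10313969-10314118, minus strand: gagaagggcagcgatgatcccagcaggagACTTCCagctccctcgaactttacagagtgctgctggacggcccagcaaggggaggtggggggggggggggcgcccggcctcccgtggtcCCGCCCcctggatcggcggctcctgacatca
Both Emp1 stretches hold CTTTGA, the core letters of the TCF/LEF motif, at positions -118 and -141 from the start, and Emp3 holds TATAAA, the TATA box, at -40. The first Emp3 window holds the TCF/LEF letters too, as their reverse complement at -230, upstream of the stretch shown. Emp3 also holds CAGCTG, an E box of E proteins, at -63, and Emp2 holds an ETS motif (GGAAGT, here as its reverse complement) and a GC box (GGGCGG, likewise reversed). The search covered 9 motifs on both strands, over 250 bases before to 50 after each start, and matches of different motifs could overlap. The search also included the CCAAT box. The RBPJ letters were GTGGGAA. The RUNX letters were TGTGGT, and the first Emp1 window holds them at -160, upstream of the stretch shown. That window also holds a GC box, reversed, at position 15. The window of a second Emp3 start, which is not shown, holds the RBPJ letters at -245 and the RUNX letters, reversed, at -56. The Emp2 window holds further GC boxes at -163, 2 and 30, outside the stretch shown. Of all windows, 16.8% hold the RUNX letters and 6.38% the RBPJ letters. The letters of the GATA factors were AGATAA. Of 32851 such windows, 16% hold the TCF/LEF letters, 13.6% the TATA box, 16.3% the E box, 23.8% the ETS letters and 35.7% the GC box, so each is a common match. GC content was 46.7% and 48% in the Emp1 windows, 52.7% in the first Emp3 window and 65.7% in the Emp2 window, beside a median of 52.7%. These arrays do not show which start was used.

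Emp1 was either high or low, with no array in between. In ETP its log2 values were 9.63 and 9.61, in LMPP 9.34 and 9.08, and in DN3 8.49 and 7.72. CLP followed with 8.05 and 7.38, and flt3+ CMP with 7.36 and 8.05. All 10 arrays of these 5 populations were at 7.36 or above. The low side held HSC at 3.53 and 5.35, flt3- CMP at 4.87 and 3.42, NK at 4.24 and 3.99, and EILP at 3.54. All 7 arrays of these 4 populations were at 5.35 or below. Of these 7, 5 lay below 4.54, the median of all values, where a probe set may report little more than background. The size of any difference from them is therefore uncertain.

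**Figure D1:**
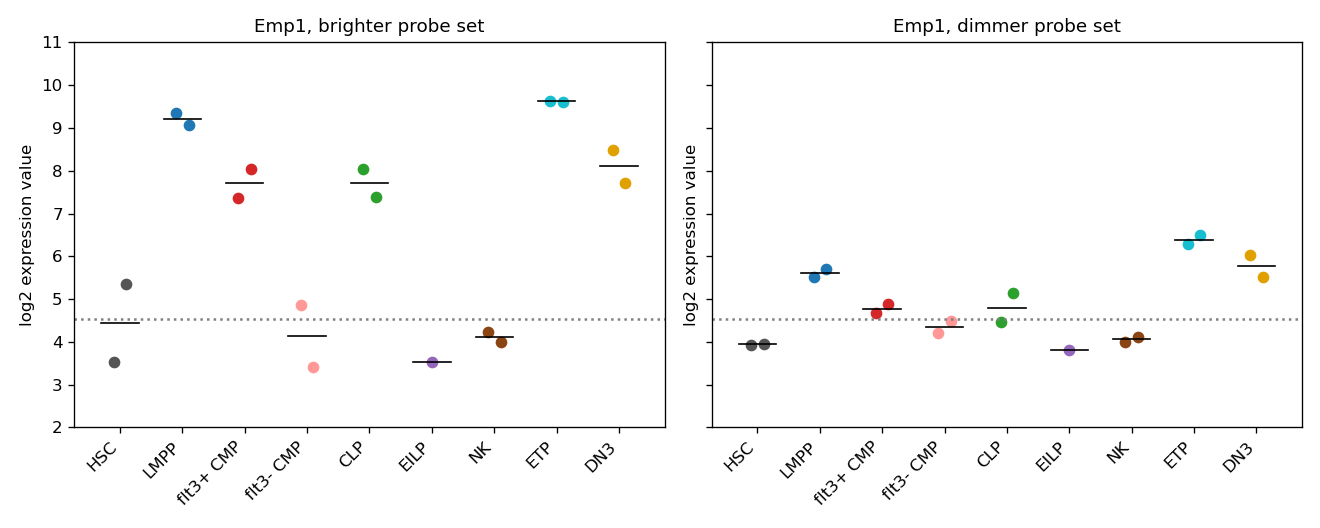
Log2 expression value of Emp1 on each array (points, 1 or 2 per population, coloured by population) and the mean of each population (bars), for the probe set with the higher mean (left) and the other one (right). The dotted line is the median of all values, 4.54. On the left, ETP, LMPP, DN3, CLP and flt3+ CMP stand at 7.36 or above and the other 4 populations at 5.35 or below, and on the right the same populations lead over a smaller range.

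The order of the Emp1 means was ETP at 9.62 ± 0.013 (SD, n = 2), LMPP at 9.21 ± 0.19, DN3 at 8.11 ± 0.55, CLP at 7.72 ± 0.48, flt3+ CMP at 7.70 ± 0.49, HSC at 4.44 ± 1.29, flt3- CMP at 4.14 ± 1.03, NK at 4.11 ± 0.17 and EILP at 3.54. The pooled SD between paired arrays was 0.66, the wide pairs being HSC and flt3- CMP. Among neighbours in this order, only 2 steps exceeded that spread without overlap of arrays, the 1.10 between LMPP and DN3 and the 3.26 between flt3+ CMP and HSC. The steps among DN3, CLP and flt3+ CMP, and those among HSC, flt3- CMP, NK and EILP, were within it. Emp1 was chosen by these same values, so the steps describe its levels and test nothing.

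Read along the stages, Emp1 changed side several times. LMPP stood 4.77 above HSC on the log2 scale, a 27.2-fold difference. From LMPP the myeloid branch with Flt3 was lower by a small step, at 7.70 in flt3+ CMP and 9.21 in LMPP, a difference of -1.51. Within the CMP, flt3+ CMP stood 3.56 above flt3- CMP, 11.8-fold. On the lymphoid side, CLP minus LMPP was -1.49. EILP was 4.18 below CLP and 6.08 below ETP, and at 3.54 it lay below both NK arrays, 4.24 and 3.99, by less than the pooled SD from their mean of 4.11. NK minus CLP was -3.60. In the thymus, ETP minus LMPP was 0.41, less than the spread, and DN3 minus ETP was -1.51.

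All 7 low Emp1 arrays were from marrow, and all 4 thymus arrays were high. Among the populations with Y-linked transcripts, CLP and DN3 were high and EILP was low, and among the others LMPP, flt3+ CMP and ETP were high and HSC, flt3- CMP and NK were low. The neutrophil list averaged 11.77 in EILP and 11.62 and 11.70 in CLP. Markers of stroma and endothelium averaged 4.19 to 4.58 over all arrays, with 6 or 7 of 8 genes below the median of all values on each. Thymic epithelial markers (5 of 6 measured) averaged 4.15 and 4.30 in ETP, 4.62 and 4.84 in DN3, and 4.03 to 4.32 in marrow. Of these markers, Epcam alone was raised in DN3, with a mean of 6.28 against 3.51 to 3.98 in the other populations. Krt8, Krt14, Foxn1 and Psmb11 in DN3 lay within the range of the other populations. The part of other cells, tissue or sex in the Emp1 levels was not tested.

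The second Emp1 probe set ranked the populations much alike over a smaller range, though not in every step. It read 6.28 and 6.50 in ETP, 6.02 and 5.51 in DN3, 5.53 and 5.69 in LMPP, 4.46 and 5.14 in CLP, and 4.67 and 4.88 in flt3+ CMP. The low populations were at 4.21 and 4.48 in flt3- CMP, a mean of 4.06 in NK, 3.93 and 3.96 in HSC, and 3.80 in EILP. Here the sides touched, because 1 CLP array at 4.46 lay below 1 flt3- CMP array at 4.48. Population means on the 2 probe sets correlated at 0.92 over 9 populations, which share the same RNA and arrays. The span from the lowest to the highest mean was 2.59 on this probe set and 6.08 on the brighter one. LMPP minus HSC was 1.67, flt3+ CMP minus flt3- CMP 0.43, EILP minus CLP -0.998 and EILP minus ETP -2.59. ETP minus LMPP was larger here, at 0.78 against 0.41 on the brighter one, and exceeded the pooled SD of 0.24 on this probe set. DN3, at a mean of 5.77, stood above LMPP at 5.61 with overlap of arrays. The step from LMPP down to DN3 on the brighter probe set was thus not seen here. Of the 12 differences, 11 had the same direction on both probe sets, whereas flt3- CMP minus HSC was -0.30 there and 0.40 here.

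Emp3 was bright in every population and fell at the DN3 stage. Its log2 values were 7.86 and 7.73 in DN3 thymocytes, against 8.67 and 8.85 in ETP. DN3 thus averaged 7.80 ± 0.095 and ETP 8.76 ± 0.13 (SD, n = 2 each), and the arrays did not overlap. The fall was -0.96 ± 0.16 (log2, SE), 1.95-fold, with a limma adjusted p of 0.0019. In this comparison 8.73% of all genes were called in either direction and 3.53% of all genes were called lower, so a call alone is not rare.

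Across the marrow, Emp3 stayed within a narrow band. EILP was at 9.27, NK at 9.09 and 9.41, CLP at 9.13 and 9.34, HSC at 9.23 and 9.13, and flt3- CMP at 9.27 and 8.96. LMPP was at 8.92 and 8.91 and flt3+ CMP at 8.62 and 8.69. All 15 arrays other than DN3 were at 8.62 or above. In the order of means, the steps between flt3- CMP and LMPP (0.20), between LMPP and ETP (0.16) and between flt3+ CMP and DN3 (0.86) exceeded the pooled SD of 0.14 without overlap. With pairs of arrays this is a low bar. When tested, ETP minus LMPP was -0.16 ± 0.16 (log2, SE) and was not called (limma adjusted p = 0.73).

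**Figure D2:**
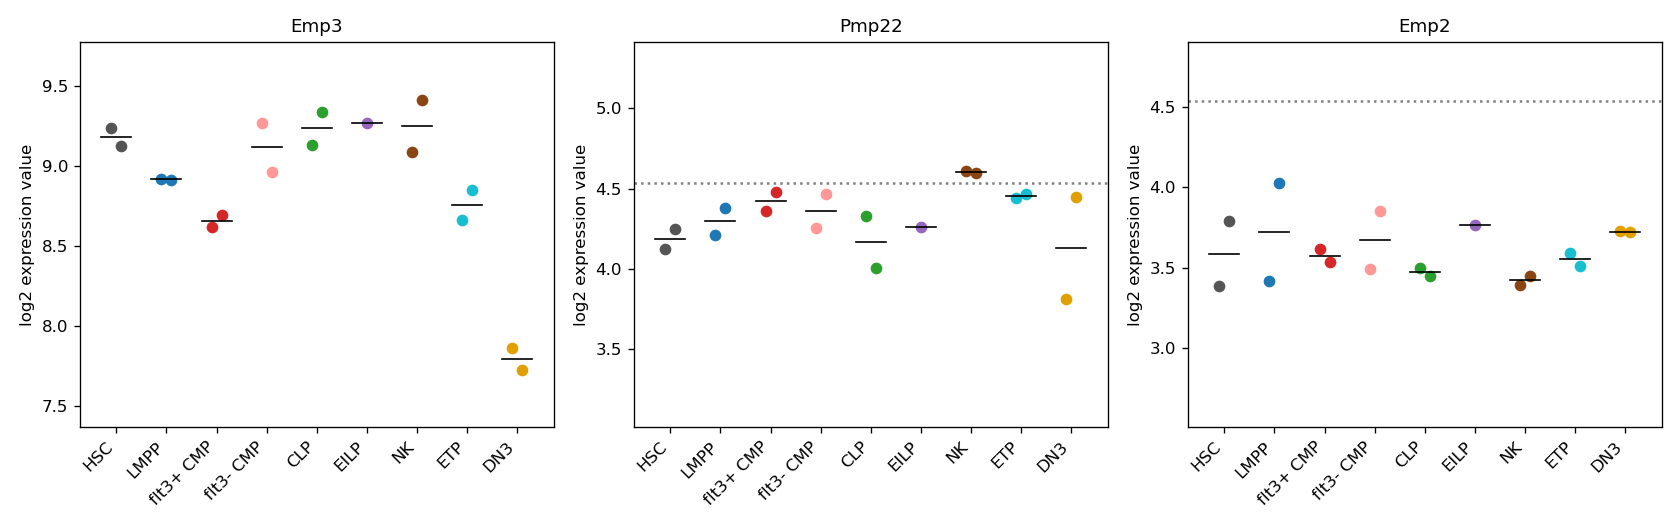
Log2 expression values of Emp3, Pmp22 and Emp2 on each array (points) with the mean of each population (bars), on axes of equal length and different position. The dotted line is the median of all values, 4.54, which lies below the Emp3 panel. Emp3 is lowest in DN3 at 7.86 and 7.73, while Pmp22 and Emp2 show no population apart from the others beyond the spread of paired arrays.

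Emp3 differed among the 9 populations by the F test (F = 16.0, adjusted p = 0.00025), where 22.7% of all genes were called. With only the 13 marrow arrays in the fit, it was not called (F = 3.55, adjusted p = 0.13). That fit leaves out ETP together with DN3 and has fewer arrays, so it cannot say which arrays carry the call. ETP, at 8.67 and 8.85, lay within the marrow range of 8.62 to 9.41, and only DN3 lay outside it. Of 12 comparisons, DN3 against ETP alone passed for Emp3. The share of all genes called was 0.6% in LMPP minus HSC, 4.22% in flt3- CMP minus HSC, 0.442% in flt3+ CMP minus LMPP and 0.108% in flt3+ CMP minus flt3- CMP. It was 5.96% in CLP minus LMPP, 3.9% in EILP minus LMPP, 0.365% in EILP minus CLP and 3.48% in EILP minus NK. It was 8.19% in EILP minus ETP, 3.42% in ETP minus LMPP and 6.39% in NK minus CLP. Leaving out 1 array moved several of these counts by more than 1.5 times, down to 1 gene against 24 in flt3+ CMP minus flt3- CMP without flt3- CMP replicate 2. EILP minus ETP was 0.51 ± 0.20 (adjusted p = 0.16) and flt3+ CMP minus flt3- CMP was -0.46 ± 0.16 (adjusted p = 0.36), and both had an unadjusted p under 0.05. The limma adjusted p of EILP minus CLP was 0.99 and that of EILP minus NK 0.98, with 95% intervals of -0.40 to 0.47 and -0.41 to 0.45.

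DN3 and ETP lie on different sides of the split in Y-linked transcripts, so in that comparison stage and sex cannot be told apart. DN3 was also compared with CLP, where Y-linked transcripts were present too, a comparison chosen after seeing the data. These pools were not matched in Xist, the transcript of the inactive X, which averaged 7.32 in DN3, 9.20 in CLP and 11.75 in ETP. Emp3 averaged 7.80 in DN3 and 9.23 in CLP, a difference of -1.44 ± 0.16 (limma adjusted p = 3.5e-05, with 10.6% of all genes called). The neutrophil list moved with Emp3 in part, at 4.03 and 4.57 in DN3, 4.79 and 5.11 in ETP and 11.62 and 11.70 in CLP. Of its genes, Ltf and Ngp were not lower in DN3 than in ETP. The part of the neutrophil list in the Emp3 fall was not tested.

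Pmp22 showed no called difference. NK had the highest values, 4.61 and 4.60, which were also the only arrays above the median of all values, 4.54. ETP was at 4.44 and 4.47, flt3+ CMP at 4.36 and 4.48, flt3- CMP at 4.25 and 4.47, LMPP at 4.21 and 4.38, and EILP at 4.26. HSC was at 4.12 and 4.25, CLP at 4.33 and 4.01, and DN3 at 3.82 and 4.45. The DN3 pair spans nearly the whole range, and no step between neighbouring means exceeded the pooled SD of 0.19 without overlap.

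By the limma F test Pmp22 had an adjusted p of 0.53 (F = 1.26). None of the 12 comparisons passed, and 1 had an unadjusted p under 0.05. That was NK minus CLP, 0.44 ± 0.19 with an adjusted p of 0.22. The 95% intervals of all 12 differences lay between -0.86 and 0.86, so changes up to that size remain possible. Schwann cell markers, of which 3 of 5 were measured (Mbp, Sox10 and Cdh19), averaged 3.75 to 4.21 on all arrays.

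Emp2 was below the median of all values on all 17 arrays. EILP read 3.76, DN3 3.73 and 3.72, LMPP 3.42 and 4.02, flt3- CMP 3.49 and 3.85, and HSC 3.38 and 3.79. flt3+ CMP read 3.62 and 3.53, ETP 3.59 and 3.51, CLP 3.49 and 3.44, and NK 3.39 and 3.45. The widest gap lay between the paired LMPP arrays and not between populations. The F test gave an adjusted p of 0.84 (F = 0.62), and none of the 12 comparisons passed in limma or had an unadjusted p under 0.05. The 95% intervals of the differences lay between -0.69 and 0.88.

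**Figure D3:**
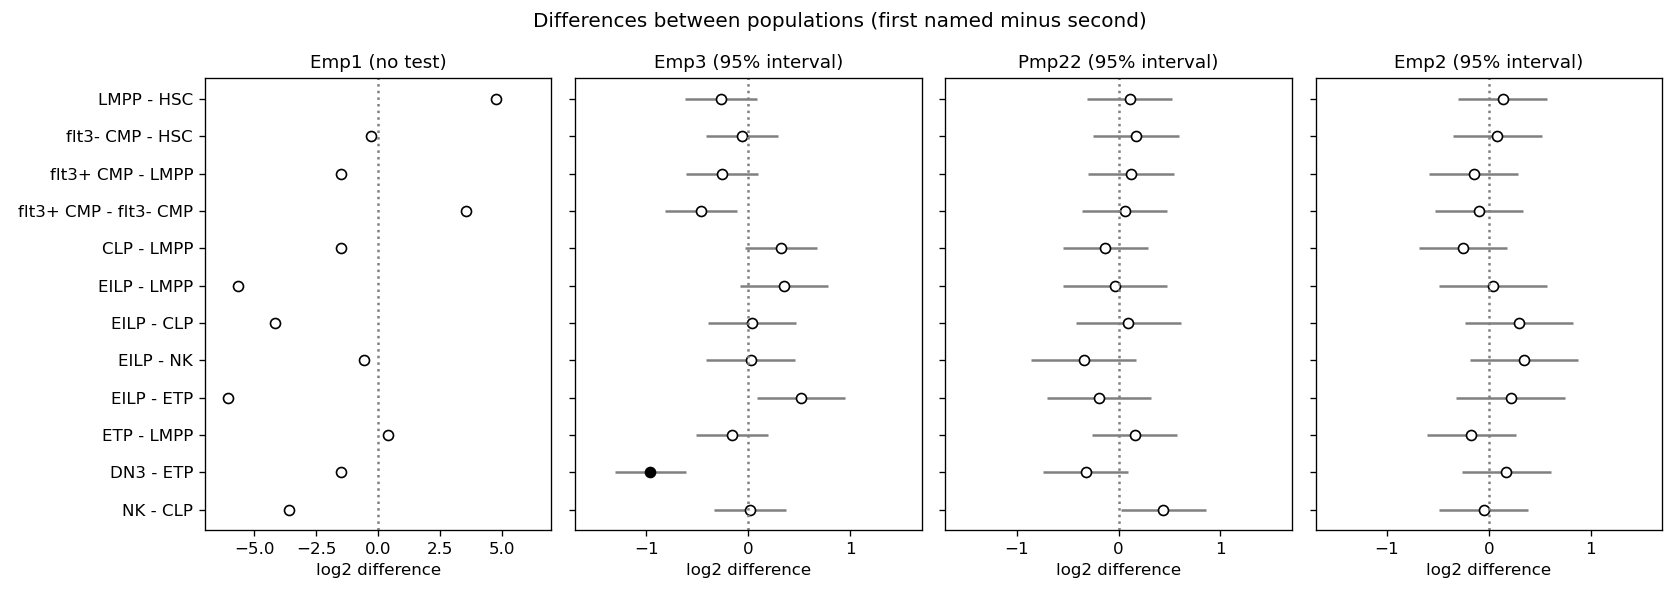
Log2 differences of the 4 genes in 12 comparisons, each the first-named population minus the second, with 95% intervals from the limma fit for the 3 genes tested. The Emp1 axis is wider than the others, filled points are called at an adjusted p under 0.05, and Emp1 was not tested. The single filled point is Emp3 in DN3 minus ETP at -0.96, while Emp1 runs from -6.08 to 4.77.

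Set against all genes, the 4 relatives covered almost the whole scale of variation. The span between the lowest and the highest population mean was 6.08 for Emp1, and only 0.239% of genes had a wider one, as its choice would bring about. It was 1.47 for Emp3 (11.8% wider), 0.47 for Pmp22 (67.8% wider) and 0.34 for Emp2 (85.6% wider), beside a median of 0.63. The correlation of the population means of Emp1 and Emp3 was -0.55 over 9 populations, and those of Emp1 with Pmp22 and Emp2 were -0.12 and -0.0034. The sets of 9 means share arrays and carry noise of similar size to the differences in Pmp22 and Emp2.

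Genes with a pattern most like Emp1 were sought among 1147 named genes whose means span at least 2 log2 units. Dntt came first, the gene of terminal transferase, which adds bases at antigen receptor joints (r = 0.93 over 9 population means and 0.92 over 17 arrays). Rag2, one of the pair of recombinase genes that cut antigen receptor loci, came next (r = 0.91 and 0.89). Then came Tmem108, a membrane protein known from neurons (0.87 and 0.83), Maml3, a Notch coactivator (0.83 and 0.73), the tetraspanin Tspan13 (0.81 and 0.74), and the somatostatin receptor Sstr2 (0.79 and 0.78). Dntt was at 10.69 in LMPP and 6.41 in HSC, at 9.93 in flt3+ CMP and 7.51 in flt3- CMP, and at 7.58 in EILP and 10.67 in CLP. Rag2 was at 6.75 in LMPP and 4.49 in HSC, at 6.20 in flt3+ CMP and 4.57 in flt3- CMP, and at 4.25 in EILP and 7.33 in CLP. In DN3 minus ETP the genes part, since Dntt and Rag2 were at 11.24 and 8.05 in DN3 and at 10.95 and 7.29 in ETP, while Emp1 was at 8.11 in DN3 and 9.62 in ETP. Leaving out any 1 population kept r at 0.926 or above for Dntt and at 0.899 or above for Rag2. Both genes were picked for the highest r over these same means, so these values are no independent support for the likeness.

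**Figure D4:**
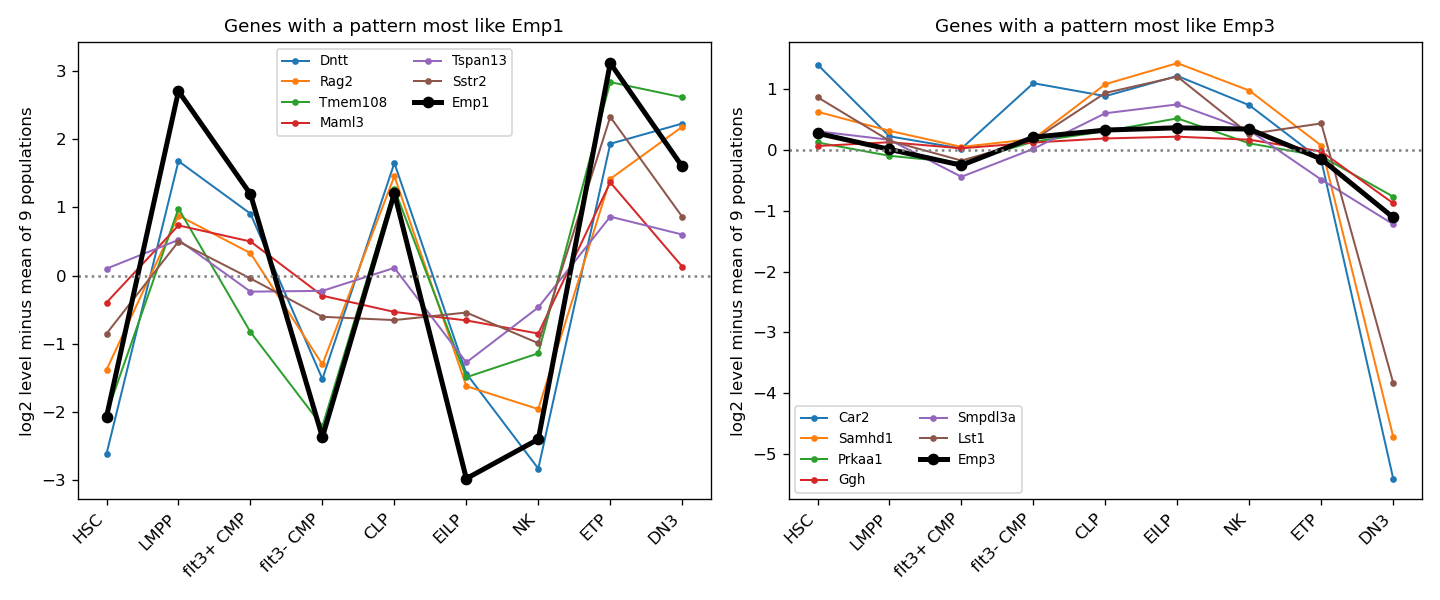
Mean log2 level of each population minus the mean of all 9, for Emp1 (left, black) and Emp3 (right, black) and the 6 genes with the most similar pattern (coloured lines). Dntt and Rag2 are high in LMPP, flt3+ CMP, CLP, ETP and DN3 as Emp1 is, and the genes beside Emp3 are lowest in DN3.

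The genes nearest to Emp3 all had their lowest mean in DN3. They were Car2, a carbonic anhydrase of red cell precursors and other cells (r = 0.96 over 9 population means), Samhd1, which breaks down nucleotides (0.95), Prkaa1, a catalytic subunit of the energy sensor AMPK (0.95), the folate enzyme gene Ggh (0.95), Smpdl3a (0.94) and Lst1 (0.94). Their drops could be far larger, as Car2 was at 4.07 in DN3 and 9.30 in ETP. Over 17 arrays r ran from 0.73 for Ggh to 0.94 for Car2. Without DN3, r over 8 populations ran from 0.69 for Lst1 to 0.91 for Smpdl3a. All 6 were picked for the highest r over these same means, DN3 among them. Their shared low point in DN3 is thus no independent support for the likeness. Pmp22 and Emp2 vary too little for such a ranking to carry weight. The genes nearest to them were Chn2 (0.96), Slc9a7, Macf1, Sting1, Ret and Crot (0.84) for Pmp22, and Dtd2 (0.87), Urgcp, Hspb6, Lrrc58, Enkd1 and Zfp873 (0.83) for Emp2. Over 17 arrays the Emp2 set reached only 0.21 to 0.59.

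Of 50 listed relatives with the claudin fold 49 were measured. Their median span was 0.53, above those of Pmp22 and Emp2 and below the 0.63 of all genes, and 5 of them (10.2%) were called in at least 1 of the 12 comparisons, against 21.4% of all genes. They were Cldn13, Cldn1, Nkg7, Cldn15 and Cldn3. Nkg7, a granule membrane protein of cytotoxic lymphocytes, was at 10.84 and 11.11 in NK and at 8.38 and 8.58 in CLP. NK lay above CLP without overlap, by 2.50 ± 0.18 (limma adjusted p = 8.5e-07, with 6.39% of all genes called). Cldn13, a claudin of mouse red cell precursors, was at 8.76 in EILP and at 5.19 and 5.49 in ETP, a difference of 3.42 ± 0.23 (adjusted p = 5.5e-07, with 8.19% of all genes called). It was also higher in CLP, at 8.67 and 8.41, than in LMPP, at 5.97 and 6.35 (2.38 ± 0.19, adjusted p = 6.6e-06, with 5.96% called). Red cell markers, with Rhag and Epb42 measured of a list of 4, moved with Cldn13. They averaged 6.83 in EILP, 4.36 and 4.04 in ETP, 6.82 and 6.54 in CLP, and 5.03 and 4.70 in LMPP, and their part in it was not tested. Cldn1, a tight junction claudin, was at 6.98 in EILP and at 4.60 and 3.60 in ETP (2.87 ± 0.41, adjusted p = 0.00042). Its ETP mean of 4.10 lies below 4.54, so the size of that difference is uncertain. The differences of Nkg7, Cldn13 and Cldn1 given here all cross the split in Y-linked transcripts, so population and sex cannot be told apart in them.

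Of 13 proteins reported to bind or act with EMP or PMP22 proteins, 11 were measured, and 5 (45.5%) were called in at least 1 comparison, against 21.4% of all genes. Leaving out either flt3- CMP array gave 3 called partners. Itgb1, the beta 1 integrin chain, averaged 9.82 in NK and 8.19 in CLP (1.63 ± 0.21, limma adjusted p = 0.00038). Itga6, the alpha 6 integrin chain, was at 6.24 and 6.27 in DN3 and at 5.23 and 5.20 in ETP, a rise of 1.04 ± 0.20 (adjusted p = 0.005). P2rx7, an ATP-gated channel that EMP proteins bind, averaged 5.17 in NK and 6.14 in CLP (-0.97 ± 0.25, adjusted p = 0.035). That call was lost under 6 of 24 other settings, among them leaving out either NK array, CLP replicate 1 or either flt3- CMP array. The differences of Itgb1, Itga6 and P2rx7 given here cross the split in Y-linked transcripts, so population and sex cannot be told apart in them. Itgb3 and the chaperone gene Canx were the others called, and the Canx call was lost under 12 of 24 other settings.

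Tetraspanins, a separate family that also crosses the membrane 4 times, varied more, with a median span of 1.66 over 23 of 24 genes, beside 0.63 for all genes. Few of them had means below 4.54 throughout, unlike the claudin fold relatives, so the 2 lists differ in signal as well. Of the 23, 11 (47.8%) were called in at least 1 comparison, against 21.4% of all genes. In DN3 against ETP, where Emp3 fell, 4 of 23 fell (17.4%, against 3.53% of all genes lower) and none rose (limma, none at an unadjusted p under 0.05 either). Cd63, a tetraspanin of lysosomes and granules, was at 3.41 and 3.61 in DN3 and at 6.39 and 5.81 in ETP, a difference of -2.59 ± 0.21 (adjusted p = 3.4e-06). Both DN3 values lie below 4.54, so its size is uncertain. Cd81 was at 6.68 and 6.27 in DN3 and at 8.48 and 8.90 in ETP (-2.21 ± 0.21, adjusted p = 1.2e-05). Tspan32 averaged 4.75 in DN3 and 7.75 in ETP, and Cd53, a tetraspanin of leukocytes, fell by 1.62 ± 0.20. All 4 calls were kept under 23 other settings. The CMP list averaged lower in DN3 too, at 4.74 and 4.82, against 6.31 and 6.48 in ETP. Of that list Mpo, a granule enzyme, was at 4.98 in DN3 and 9.82 in ETP, and Ctsg at 4.54 and 7.31. Elane was at 4.30 and 4.86 and Gata1 at 4.43 and 4.53, while Klf1 was higher in DN3, at 5.67 and 5.43. The neutrophil list averaged lower in DN3 as given above. Its genes Ltf (4.60 in DN3, 4.02 in ETP) and Ngp (4.70 and 4.63) were not lower. The part of these markers in the tetraspanin differences was not tested. In EILP against LMPP, where Emp1 lay on opposite sides, Tspan6 was at 3.65 in EILP and at 7.27 and 7.32 in LMPP (-3.64 ± 0.41, adjusted p = 0.00027, with 3.9% of all genes called). Tspan6 in EILP lies below 4.54, so the size of that fall is uncertain. Tspan13 fell there too, by 1.79 ± 0.22. Both DN3 against ETP and EILP against LMPP cross the split in Y-linked transcripts, so population and sex cannot be told apart there.

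**Figure D5:**
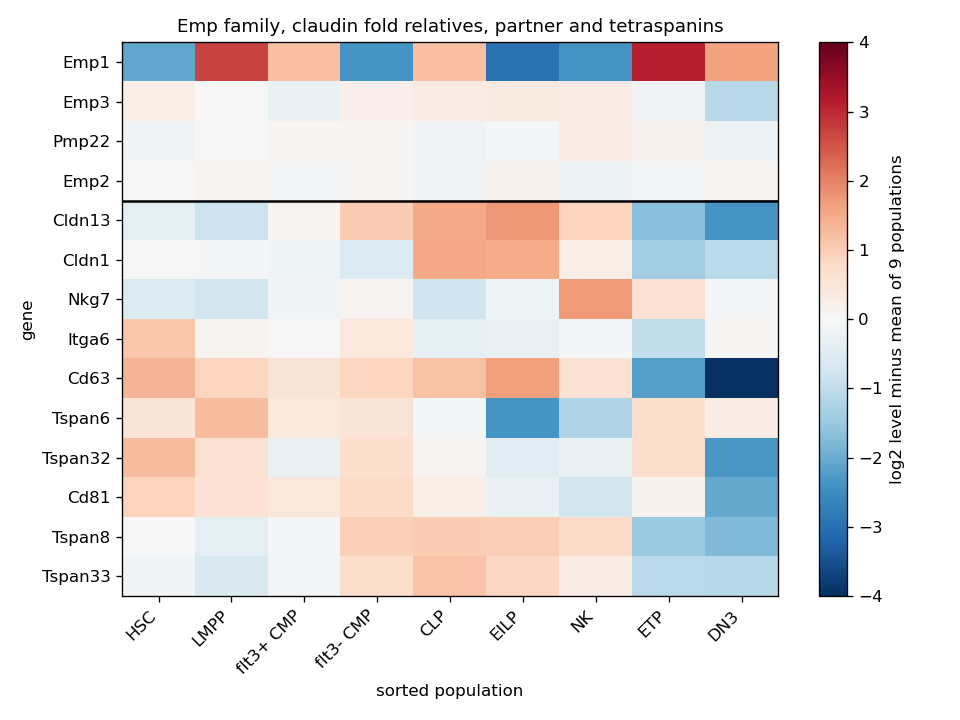
Mean log2 level of each population minus the mean of all 9 (colour, red above and blue below) for Emp1, Emp3, Pmp22 and Emp2 above the line, and below it the claudin fold relatives, integrin chain and tetraspanins with the widest spans. Emp1 alternates between red and blue along the populations, Pmp22 and Emp2 are nearly white, and Cd63 is darkest blue in DN3.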

How the data were processed

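Gene expression was measured in 17 pools of sorted cells, 1 array each. Per the submitters' processing notes, the authors used Affymetrix Expression Console, and no source used here gives its version, its algorithm or a genome build. The deposited values were read as log2 expression values per probe set (41345 probe sets). The array annotation gave 1 gene symbol to 23521 of them, 1814 had several and 16010 none, and only the first were used. For the 1082 genes with several probe sets the one with the highest mean was kept, which left 22180 genes. No filter on low values was applied.

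With limma 3.58.1 (lmFit, eBayes) in R 4.3.3, each gene got 1 mean per population from all arrays together. Residual degrees of freedom were 8 and prior ones 5.33, and the fit was tested on simulated data. The single EILP array is assumed to vary like the others. Calls needed an adjusted p (Benjamini-Hochberg, all genes of a comparison or of the F test, two-sided) under 0.05. The 36 comparisons of Emp2, Emp3 and Pmp22 carry no further adjustment. Members and lists were chosen with earlier results of these data known. The nearest genes are the 6 with the highest Pearson r to a member over population means, without predicted, small RNA and receptor segment genes. List genes named have the widest spans, picked from these same population means, or are called, chosen after seeing the values. Replicate numbers were not taken as pairs, since deviations of equal-numbered arrays correlated at -0.074 to 0.089 over 28 pairs of populations. Alternatives covered scaling, filtering, probe sets, the prior, the arrays fitted and each replicate left out.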

Additional observations from a re-analysis of the deposited data

How the results depend on the processing

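The calls of Emp2, Emp3 and Pmp22 in 12 comparisons kept their side of the threshold under each alternative tried, where a value could be had. The one exception among these results was the Emp3 F test, at F = 16.0 over all arrays and 3.55 with only the marrow arrays in the fit (adjusted p = 0.13). Emp3 in DN3 minus ETP ranged from -1.05 to -0.87 with single arrays left out, and had an adjusted p of 0.003 with the replicate block and 0.036 with only both populations in the fit. The replicate block changed no call of these 3 genes. Emp2 was left out by the filter on dim genes, which lists no value for it.

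With the mean of its probe sets in place of the brighter one, Emp1 differences shrank to 3.22 for LMPP minus HSC, 1.99 for flt3+ CMP minus flt3- CMP, -3.74 for EILP minus LMPP, -2.59 for EILP minus CLP, -4.34 for EILP minus ETP and -2.17 for NK minus CLP. Leaving out single arrays gave 3.86 to 5.68 for LMPP minus HSC, 2.83 to 4.28 for flt3+ CMP minus flt3- CMP, and -1.21 to 0.61 for flt3- CMP minus HSC. That last difference turned to 0.61 without HSC replicate 2 and 0.43 without flt3- CMP replicate 2, so its sign is not settled.

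Numbers of genes called depend on the fit more than the values do. With only both populations in the fit they were 29 against 133 in the reported fit for LMPP minus HSC, 18 against 98 for flt3+ CMP minus LMPP, 7 against 24 for flt3+ CMP minus flt3- CMP, 0 against 81 for EILP minus CLP, 125 against 772 for EILP minus NK, 855 against 1817 for EILP minus ETP, 315 against 759 for ETP minus LMPP, 1083 against 1936 for DN3 minus ETP and 564 against 1418 for NK minus CLP. For flt3+ CMP minus flt3- CMP, centring gave 9, quantile normalization 11, the block 6 and all probe sets 1, and all probe sets gave 60 for flt3+ CMP minus LMPP. With single arrays left out, the counts ran from 57 (without HSC replicate 1) to 148 for LMPP minus HSC, 226 (without flt3- CMP replicate 2) to 1093 for flt3- CMP minus HSC, 26 (without flt3+ CMP replicate 1) to 127 for flt3+ CMP minus LMPP, 1 (without flt3- CMP replicate 2) to 37 for flt3+ CMP minus flt3- CMP, and 636 (without CLP replicate 2) to 1472 for CLP minus LMPP. They ran from 477 (without LMPP replicate 2) to 960 for EILP minus LMPP, 48 (without CLP replicate 2) to 89 for EILP minus CLP, 447 (without LMPP replicate 1) to 979 for ETP minus LMPP, 1115 (without DN3 replicate 2) to 2116 for DN3 minus ETP and 740 (without CLP replicate 2) to 1623 for NK minus CLP. Genes called in at least 1 comparison numbered 4 to 7 claudin fold relatives, 3 to 5 partners and 10 to 12 tetraspanins with single arrays left out. The 4 tetraspanins lower in DN3 than in ETP were called in every alternative run. Signals below 4.54 limit what can be said of Emp2, of most Pmp22 values and of Emp1 on its low side.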

Other observations

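The widest gaps between paired arrays of Emp1 were in HSC and flt3- CMP. The brighter probe set read 5.35 and 3.53 in the HSC arrays and 4.87 and 3.42 in the flt3- CMP arrays, while the dimmer one read 3.96 and 3.93 in the same HSC arrays and 4.21 and 4.48 in the flt3- CMP arrays. In flt3- CMP the array that was higher on one probe set was the lower on the other. In the DN3 arrays both probe sets were higher in the same array, at 8.49 and 7.72 and at 6.02 and 5.51, and in the CLP arrays they were not, at 8.05 and 7.38 and at 4.46 and 5.14.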
